A study of Mus musculus with 6 samples.

Results

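The EGF receptor (ErbB) family and its ligands were followed in HC11 cells, a line derived from mouse mammary epithelium that the study used as a luminal line, cultured in medium without BMP7 (Ctrl, 3 libraries) or with BMP7 (3 libraries). Members were the genes whose names in the deposited counts equal those of 3 receptors (Egfr, Erbb2 and Erbb3) and 7 ligands (Areg, Ereg, Btc, Hbegf, Epgn, Tgfa and Nrg1), which gave 10 of 55809 genes, 9 of them with enough counts to be tested. The study's methods describe HC11 cells starved for 16 h in medium lacking serum, EGF and insulin before stimulation with 50 ng/mL BMP7 for 30 min or 6 h, and do not say which duration was used for sequencing. Both groups share the line and, as far as the methods say, the starvation. The BMP7 libraries are numbered 1, 3 and 4 and the Ctrl libraries 1, 2 and 3, after the column headers. No source says that they came from separate cultures, so the p-values measure the spread between these libraries, which may be technical.

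ErbB receptors are tyrosine kinases at the cell surface that pair with each other when a ligand binds. EGFR binds the EGF-like ligands, whereas ERBB3 binds neuregulins, signals poorly by itself and works mostly through its pairing with ERBB2, which has no known ligand. The ligands are made as membrane-anchored precursors and cut loose by ADAM proteases. Inside the cell the receptors feed the Ras-ERK and PI3K-Akt pathways. In the mammary gland, amphiregulin (encoded by Areg) and EGFR are known for ductal outgrowth, and neuregulin with ERBB3 for luminal and alveolar development.

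All 7 ligands carry an EGF motif, in which 6 cysteines at fixed spacing hold the fold that the receptor reads. The coding sequences of this motif are shown for 6 ligands to make visible what the genes that changed and those that did not have in common. They run 5′ to 3′ along the coding strand, with the cysteine codons in capitals, and were found by their cysteine spacing in GENCODE vM21 transcripts, which are on GRCm38.
Areg: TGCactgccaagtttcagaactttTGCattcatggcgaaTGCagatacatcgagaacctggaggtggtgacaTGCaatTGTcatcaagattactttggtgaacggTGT
Ereg: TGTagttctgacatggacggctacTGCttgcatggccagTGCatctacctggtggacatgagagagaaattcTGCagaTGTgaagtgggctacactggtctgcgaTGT
Btc: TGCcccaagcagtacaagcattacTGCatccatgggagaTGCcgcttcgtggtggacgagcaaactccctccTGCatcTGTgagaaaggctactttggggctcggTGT
Epgn: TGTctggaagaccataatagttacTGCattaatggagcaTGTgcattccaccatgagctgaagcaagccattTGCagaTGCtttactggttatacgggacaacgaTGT
Tgfa: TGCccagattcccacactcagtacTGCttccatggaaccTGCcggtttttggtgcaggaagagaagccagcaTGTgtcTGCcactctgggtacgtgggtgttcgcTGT
Nrg1: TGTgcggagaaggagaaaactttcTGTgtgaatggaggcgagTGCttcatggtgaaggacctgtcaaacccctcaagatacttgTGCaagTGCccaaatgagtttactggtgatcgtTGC
The motif spans 108 bases, or 36 codons, in Areg, Ereg, Btc, Epgn and Tgfa, and 120 bases, or 40 codons, in Nrg1. The highest base identity between a pair of these 6 was 62.0%, between Btc and Tgfa, and the lowest was 49.2%, between Tgfa and Nrg1. Ereg and Btc shared 52.8% of bases. No member's transcripts matched those of another member at 95% identity over at least 100 bases. Matches of that kind to other genes were found for Nrg1 (482 bases, Gm26578), Ereg (141 bases, Gm19610), Tgfa (119 bases, Gm43917) and Egfr (100 bases, Olfr798), so a small part of their counts is uncertain.

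Epgn, Ereg, Areg and Btc lie in this order within 375531 bases of chromosome 5 (mm39 positions 91175323 to 91550853, as deposited). The span holds 7 annotated genes in all, and the largest gap between neighbouring members, 208828 bases, lies between Areg and Btc. Egfr (positions 16702203 to 16868158) and Erbb2 (98303296 to 98328542) are on chromosome 11, Erbb3 (128403392 to 128425521) on chromosome 10, Tgfa (86172205 to 86252701) on chromosome 6, Nrg1 (32304579 to 33374825) on chromosome 8 and Hbegf (36637980 to 36648858) on chromosome 18. Of the members' exon bases in the deposited annotation, 3.42% of those of Ereg, 1.82% of those of Tgfa and 0.173% of those of Erbb2 also belong to another gene, and the other members share none.

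Between 14607938 (BMP7 library 1) and 23748970 (BMP7 library 3) fragments were counted per library, and Ctrl held between 19858701 and 20327200. The known BMP targets Id1, Id2, Id3, Smad6 and Smad7 were all higher with BMP7, by 2.21 to 6.31 on the log2 scale. Markers of both luminal and basal cells were present. The epithelial genes Epcam and Cdh1 had means of 796 and 587 TPM in Ctrl (a level scaled by exon length and library), while the basal genes Acta2 and Myh11 had 2 to 15 and 3 to 16 counts per library. The basal keratin Krt5 had a mean of 3287 TPM in Ctrl against 88.2 TPM for the luminal keratin Krt8, whereas luminal Krt19 had 8 counts at most and the milk protein gene Csn2 1. In markers of adipocytes and macrophages, BMP7 libraries 3 and 4 stood apart from the other 4 libraries. The summed level of 7 adipocyte markers was 19.0 CPM (counts scaled to library size by the TMM method) in BMP7 library 1 and 58.4 and 52.6 CPM in BMP7 libraries 3 and 4, against 9.59 to 16.6 CPM in Ctrl, and that of 8 macrophage markers was 46.3, 24.0 and 22.8 CPM in the same order, against 44.6 to 48.4 CPM in Ctrl. Results that rest on BMP7 libraries 3 and 4 are therefore also given for BMP7 library 1 alone against Ctrl, with the lone library taken to vary as the Ctrl libraries do.

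BMP7 against Ctrl addressed whether stimulation with BMP7 alters expression of the receptors and ligands. Erbb3, Ereg and Btc were lower with BMP7, by 1.27-, 1.39- and 1.62-fold, and no member was higher at the same thresholds. A gene was called when edgeR's quasi-likelihood test gave an adjusted p under 0.05, adjusted over all 15733 genes tested, and the fold change exceeded 1.2. Of the 9 members tested, 3 were called lower, against 5.38% of all genes tested, and 0 were called higher, against 5.99%. One member, Egfr, was higher at an unadjusted p under 0.05 (13.1% of all genes), and DESeq2 called 0 members higher and 3 lower (5.89 and 4.7% of all genes). By the adjusted p alone, without the fold threshold, the members' counts were again 0 and 3 (7.33 and 6.42%). The median log2 fold change of the 9 was -0.07, with -0.0062 over all genes tested. The groups did not overlap in 5 members (29.8% of all genes), with BMP7 above Ctrl in 1 (14.8%) and below it in 4 (15.1%). With 3 libraries against 3, an exact permutation test cannot go below a two-sided p of 0.1, so the calls rest on the fit across genes.

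**Figure D1:**
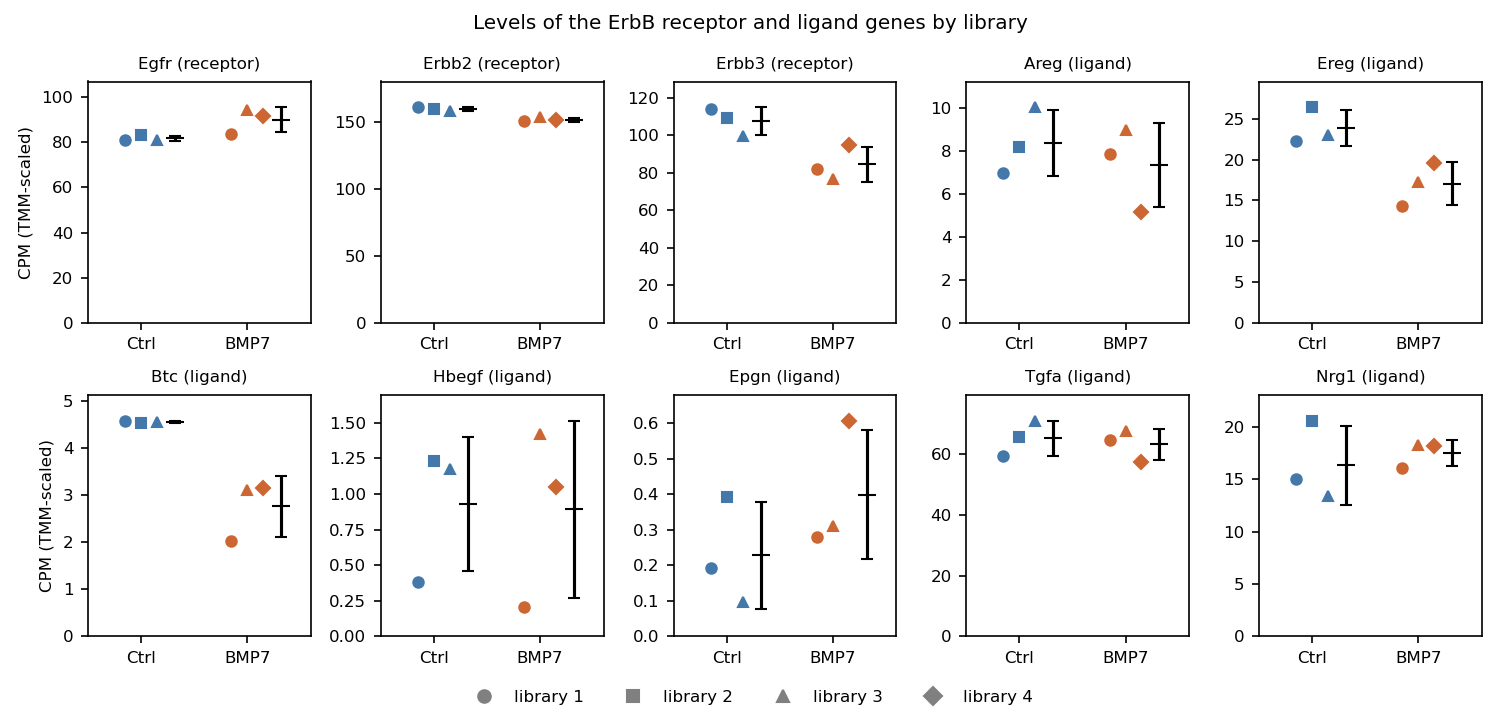
Level of each member in each library in TMM-scaled CPM (y axis from 0, own range per panel) for Ctrl (blue) and BMP7 (orange), with the mean and SD of 3 libraries in black. The groups do not overlap for Egfr, Erbb2, Erbb3, Ereg and Btc.

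Among the receptors, Erbb3 was the one called. Its level was 114, 109 and 99.5 CPM in Ctrl libraries 1, 2 and 3 and 82.1, 76.4 and 94.7 CPM in BMP7 libraries 1, 3 and 4. Every BMP7 library lay below every Ctrl library, but the closest pair, Ctrl library 3 and BMP7 library 4, was near. Means were 108 ± 7.34 CPM in Ctrl and 84.4 ± 9.36 CPM with BMP7 (SD, n = 3), a log2 fold change of -0.35 (SE 0.08, 95% interval -0.52 to -0.18, edgeR adjusted p = 0.00649). The call held in all 6 fits that each left out 1 library, at log2 fold changes between -0.44 and -0.28. BMP7 library 1 alone against Ctrl gave -0.39 (edgeR adjusted p = 0.0148).

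Egfr, the receptor for most of the ligands listed here, moved the other way and was not called. Its level was 80.9, 83.1 and 80.9 CPM in Ctrl and 83.6, 94.3 and 91.6 CPM in BMP7 libraries 1, 3 and 4. BMP7 library 1 sat within 1 CPM of the highest Ctrl library, so the higher mean came from the other two. The log2 fold change was 0.14 (SE 0.06, 95% interval 0.0049 to 0.28), with a raw p of 0.0432 and an edgeR adjusted p of 0.173, and 0.037 for BMP7 library 1 alone.

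Erbb2, the partner without a ligand of its own, was the receptor with the highest level. Its level was 161, 159 and 158 CPM in Ctrl and 150.1, 153 and 151 CPM with BMP7. The groups did not overlap, yet the difference was small, with a log2 fold change of -0.07 (SE 0.06, 95% interval -0.19 to 0.05, edgeR adjusted p = 0.452). The interval leaves out a fall as large as that estimated for Erbb3. Whether the changes of the 3 receptors differ from one another was not tested.

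The balance between receptors could be read within each library, since a ratio of TPM values needs no scaling between libraries. The Erbb3 to Erbb2 ratio was 0.614, 0.594 and 0.546 in Ctrl and 0.474, 0.432 and 0.544 with BMP7. The groups did not overlap, with BMP7 library 4 just below Ctrl library 3. The Egfr to Erbb2 ratio was 0.232, 0.240 and 0.236 in Ctrl and 0.256, 0.283 and 0.279 with BMP7, again without overlap. Neither Egfr nor Erbb2 was called, and no test was run on the ratios. Among single genes, 29.8% of those tested did not overlap between the groups. Erbb3 made up 30.6 to 33.3% of the summed TPM of the 3 receptors in Ctrl and 25.2 to 29.8% with BMP7. The fourth receptor, Erbb4, which also binds neuregulins, had 0 counts in all 6 libraries, which allows at most 0.209 CPM in the shallowest (3 counts, counting error only).

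**Figure D2:**
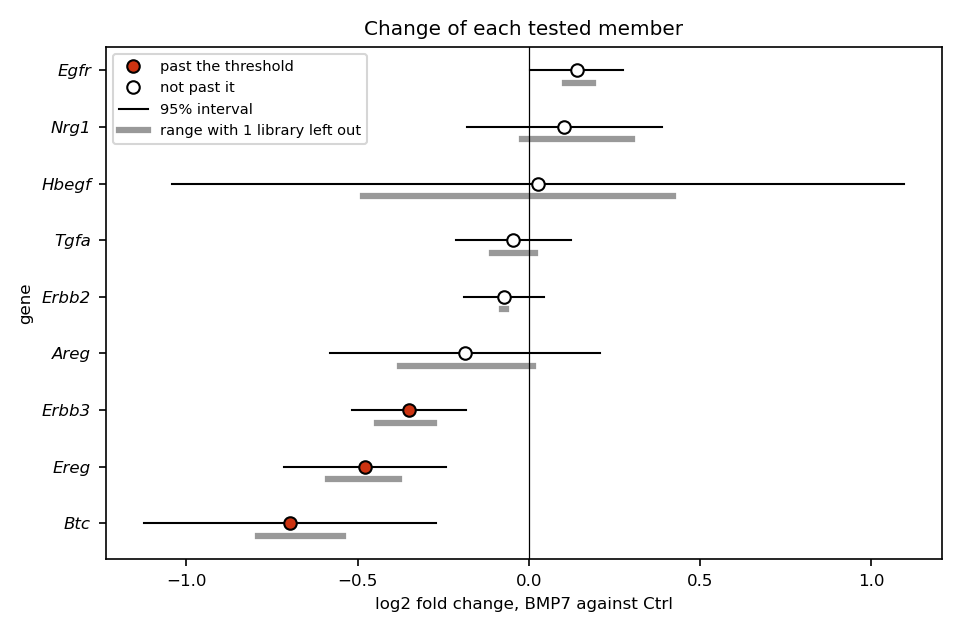
Log2 fold change of the 9 tested members, BMP7 against Ctrl (x axis), with the 95% interval from edgeR (black line) and the range over fits that each left out 1 library (grey bar). Erbb3, Ereg and Btc (filled) passed the thresholds, and the grey bars of Nrg1, Hbegf, Tgfa and Areg cross 0.

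Among the ligands, Ereg and Btc were called lower. Ereg encodes epiregulin, which binds EGFR and ERBB4. Its level was 22.2, 26.4 and 23.0 CPM in Ctrl and 14.4, 17.2 and 19.6 CPM in BMP7 libraries 1, 3 and 4. All BMP7 libraries lay below all Ctrl libraries, with BMP7 library 1 the lowest. Means were 23.9 ± 2.20 and 17.1 ± 2.63 CPM (SD, n = 3), a log2 fold change of -0.48 (SE 0.11, 95% interval -0.71 to -0.24, edgeR adjusted p = 0.00832). The call held in 5 of 6 fits that left out 1 library and was lost without Ctrl library 2, the highest of all (-0.40, edgeR adjusted p = 0.0668). BMP7 library 1 alone gave -0.73 (edgeR adjusted p = 0.00501).

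Btc encodes betacellulin, which binds EGFR and ERBB4 as well. It was counted in 95, 92 and 93 fragments in Ctrl and in 29, 70 and 57 in BMP7 libraries 1, 3 and 4, or 4.57, 4.52 and 4.55 CPM against 2.02, 3.11 and 3.14 CPM. The Ctrl libraries differed by 3 counts at most, and every BMP7 library lay below them, with BMP7 library 1 lowest. The log2 fold change was -0.70 (SE 0.20, 95% interval -1.12 to -0.27, edgeR adjusted p = 0.0291), the largest change among the 9 members tested. The call was the least firm of the 3, and held in 2 of the 6 fits with 1 library left out, those without BMP7 library 3 or 4. It was lost without Ctrl library 1, 2 or 3 (log2 fold change -0.70 each time, edgeR adjusted p = 0.0784, 0.0847 and 0.0715) and without BMP7 library 1 (log2 fold change -0.54, edgeR adjusted p = 0.0713), and for BMP7 library 1 alone the value was -1.17 (edgeR adjusted p = 0.0190).

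Areg, which lies between Ereg and Btc on chromosome 5, was not called. Its level was 6.98, 8.16 and 10.03 CPM in Ctrl and 7.88, 8.98 and 5.18 CPM with BMP7. The groups overlapped, and BMP7 library 4 alone lay below all of Ctrl. The log2 fold change was -0.19 (SE 0.19, 95% interval -0.58 to 0.21, edgeR adjusted p = 0.586), an interval that includes the fall estimated for Ereg, so these values do not show that the neighbouring genes differ in response. Epgn, at the other end of the cluster, encodes epigen and was counted in 4, 8 and 2 fragments in Ctrl and 4, 7 and 11 with BMP7, too few for the test (log2 fold change 0.79, edgeR adjusted p = 0.641, without the filter on low counts).

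Tgfa encodes TGF-alpha and had the highest level among the ligands. It was measured at 59.2, 65.5 and 70.7 CPM in Ctrl and 64.5, 67.6 and 57.4 CPM with BMP7. The groups overlapped, with a log2 fold change of -0.04 (SE 0.08, 95% interval -0.21 to 0.12, edgeR adjusted p = 0.779). The interval is narrow enough to leave out a fall of the size estimated for Ereg or Btc.

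Hbegf encodes a heparin-binding ligand of EGFR and was near the limit of detection. It had 8, 25 and 24 counts in Ctrl and 3, 32 and 19 with BMP7, so library 1 of each group was lowest. The log2 fold change of 0.03 (SE 0.50, 95% interval -1.04 to 1.10, edgeR adjusted p = 0.984) leaves both a fall and a rise of 2-fold inside the interval. No difference was detectable at this depth.

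Nrg1, the only neuregulin gene measured well above the detection limit and thus the only such ligand listed for ERBB3, was not called. Its level was 15.03, 20.6 and 13.4 CPM in Ctrl and 16.1, 18.3 and 18.2 CPM with BMP7. The BMP7 libraries all lay within the range of Ctrl, and the log2 fold change was 0.10 (SE 0.13, 95% interval -0.18 to 0.39, edgeR adjusted p = 0.683). Among the ligand genes of the family outside the 7, Egf had 23 to 39 counts in Ctrl and 12 to 24 with BMP7 (-0.44, edgeR adjusted p = 0.447) and Nrg4 14 to 20 and 5 to 15 (-0.59, edgeR adjusted p = 0.430). Nrg2 had at most 6 counts and Nrg3 at most 1 in any library.

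Levels were compared between genes in TPM, which corrects for exon length. By mean TPM in Ctrl the order was Erbb2 (83.5), Erbb3 (48.9), Tgfa (27.4), Egfr (19.7), Areg (18.8), Ereg (15.8), Nrg1 (2.90), Btc (2.75), Hbegf (0.520) and Epgn (0.347). The ranges of the Ctrl libraries overlapped for the neighbours Egfr and Areg, Areg and Ereg, Nrg1 and Btc, and Hbegf and Epgn, so these pairs cannot be ranked. With BMP7 the first 8 places kept this order. The ranges of Egfr and Areg, and of Nrg1 and Btc, no longer overlapped there, while those of Areg and Ereg and of Hbegf and Epgn did. Tgfa made up 42.5, 40.9 and 41.9% of the summed TPM of the 6 EGFR ligands among the members in Ctrl and 48.4, 45.0 and 46.3% with BMP7, without overlap. The share of Ereg was 25.1, 25.9 and 21.4% in Ctrl and 16.9, 18.1 and 24.9% with BMP7, with overlap through BMP7 library 4.

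**Figure D3:**
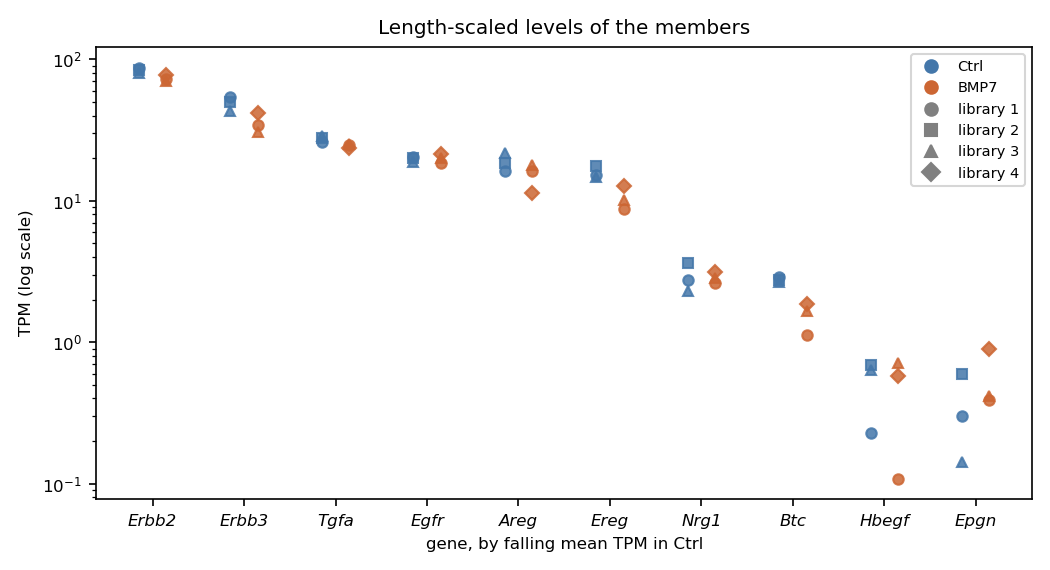
Length-scaled level (TPM, log axis) of each member in each library, ordered by mean level in Ctrl. Erbb2 leads at 83.5 TPM, and Hbegf and Epgn lie under 1 TPM in every library.

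Genes that act around the receptors were read from 4 lists of 79 genes, 75 of them tested. By the thresholds above, 7 rose and 11 fell. Over all genes tested, 5.99% were higher and 5.38% lower, the shares against which the counts of each list are to be read. The lists were chosen with earlier results of these data known, so these counts are not an independent test. The first list holds 11 genes that act in the release of ligands from the membrane, among them the inhibitor Timp3. Of these, 10 were tested, with 2 higher and 0 lower (0 lower by DESeq2). At an unadjusted p under 0.05, 1 was lower (Rhbdf2, log2 fold change -0.16, edgeR adjusted p = 0.0784). The share of all genes lower at that cut was not computed. Adam10, a protease that cuts betacellulin among others, rose from 337 ± 15.2 to 489 ± 17.5 CPM (log2 fold change 0.54, SE 0.06, edgeR adjusted p = 1.19e-05). Timp3, an inhibitor of such proteases, rose from 325 ± 32.1 to 469 ± 31.3 CPM (0.53, SE 0.07, edgeR adjusted p = 0.000109), although 21.3% of its exon bases also belong to Syn3. Adam17, which cuts amphiregulin and TGF-alpha, had a log2 fold change of -0.03 (edgeR adjusted p = 0.830). The list's median was 0.07.

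Among 15 genes whose products restrain or remove ErbB receptors, all tested, 2 were higher and 1 lower, with a median log2 fold change of 0.0018. Lrig1, a membrane protein that promotes the degradation of ErbB receptors, was at 57.5, 52.7 and 55.6 CPM in Ctrl and 21.2, 24.6 and 27.4 CPM with BMP7. It fell in every library by far more than the replicates differed, with a log2 fold change of -1.17 (SE 0.09, edgeR adjusted p = 7.84e-08). Cblb, a ubiquitin ligase that marks activated EGFR, rose from 81.6 ± 5.02 to 128 ± 11.4 CPM (0.65, SE 0.07, edgeR adjusted p = 9.25e-06). Sh3kbp1, an adaptor of Cbl proteins in receptor endocytosis, rose from 138 ± 11.6 to 215 ± 20.2 CPM (0.64, SE 0.08, edgeR adjusted p = 1.92e-05). These 3 genes, all linked to receptor turnover, thus moved in both directions.

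Of 32 adaptor, Ras-ERK and PI3K-Akt genes, all tested, 0 were higher (7 at an unadjusted p under 0.05, against 13.1% over all genes, 0 by DESeq2, and 2, Map2k1 and Mapk3, past the adjusted p without the fold threshold) and 3 were lower, with a median of 0.0054. By an unadjusted p under 0.05, 5 of the 32 were lower, a cut whose share over all genes was not computed. Pik3r2, a regulatory subunit of PI3K, fell from 381 ± 17.7 to 263 ± 16.7 CPM (-0.53, SE 0.06, edgeR adjusted p = 2.4e-05). Grb7, an adaptor of ERBB2 and ERBB3, fell from 49.3 ± 1.36 to 38.3 ± 3.83 CPM (-0.37, SE 0.08, edgeR adjusted p = 0.00406), and was -0.22 (edgeR adjusted p = 0.188) for BMP7 library 1 alone. Pik3r1, another PI3K subunit, fell by 0.29 on the log2 scale (SE 0.08, edgeR adjusted p = 0.0236), and lost its call without Ctrl library 1 (-0.25), Ctrl library 2 (-0.31) or BMP7 library 1 (-0.19).

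The last list holds 21 genes that ERK activation by EGF-like ligands is known to induce, 18 of them tested, with 3 higher, 7 lower (5.99 and 5.38% over all genes) and a median of -0.22. The largest falls were those of Etv5, an ETS transcription factor, from 21.5 ± 6.74 to 6.54 ± 1.04 CPM (-1.71, SE 0.19, edgeR adjusted p = 1.01e-05), Egr2, an immediate-early factor, from 7.32 ± 1.93 to 3.64 ± 0.142 CPM (-1.01, SE 0.20, edgeR adjusted p = 0.00222), and Spry1, a feedback inhibitor, from 6.84 ± 0.433 to 4.16 ± 0.568 CPM (-0.72, SE 0.16, edgeR adjusted p = 0.00586). For BMP7 library 1 alone Egr2 and Spry1 were not past the threshold (edgeR adjusted p = 0.0533 and 0.0742) at values of -1.04 and -0.68. The largest rises were those of Phlda1 (0.94, edgeR adjusted p = 0.000598), Spred2, which restrains ERK signalling as Spry1 does (0.64, edgeR adjusted p = 1.38e-05), and Fos (0.54, edgeR adjusted p = 0.00304). Parts of some of these genes are hard to tell from others, as 33.0% of the exon bases of Phlda1, 24.4% of those of Spry1 and 23.4% of those of Ccnd1 (described next) belong to another gene too, and 42.8% of the longest Etv5 transcript matches the pseudogene Gm4798. The other 4 that fell, named after their values were seen, were Dusp6 (-0.65), Etv4 (-0.43), Ccnd1 (-0.39) and Egr1 (-0.36). The groups overlapped for Egr1, with Ctrl library 1 at 43.0 and BMP7 library 3 at 44.6 CPM. They also overlapped for Ccnd1, with Ctrl library 1 at 81.1 and BMP7 library 1 at 81.6 CPM, but not for Dusp6 and Etv4. The closest pair for Etv4 was near, with Ctrl library 1 at 25.8 and BMP7 library 3 at 25.5 CPM. Etv4 lost its call in 3 of the 6 fits with 1 library left out (without Ctrl library 2 or 3 or BMP7 library 4, at -0.40 to -0.32), Egr1 in 4 (without Ctrl library 2 or 3 or BMP7 library 1 or 4, at -0.40 to -0.25) and Ccnd1 in 5 (all but without Ctrl library 1, at -0.41 to -0.20) and with DESeq2. For BMP7 library 1 alone these 3 were at -0.36, -0.28 and -0.34 and not called.

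**Figure D4:**
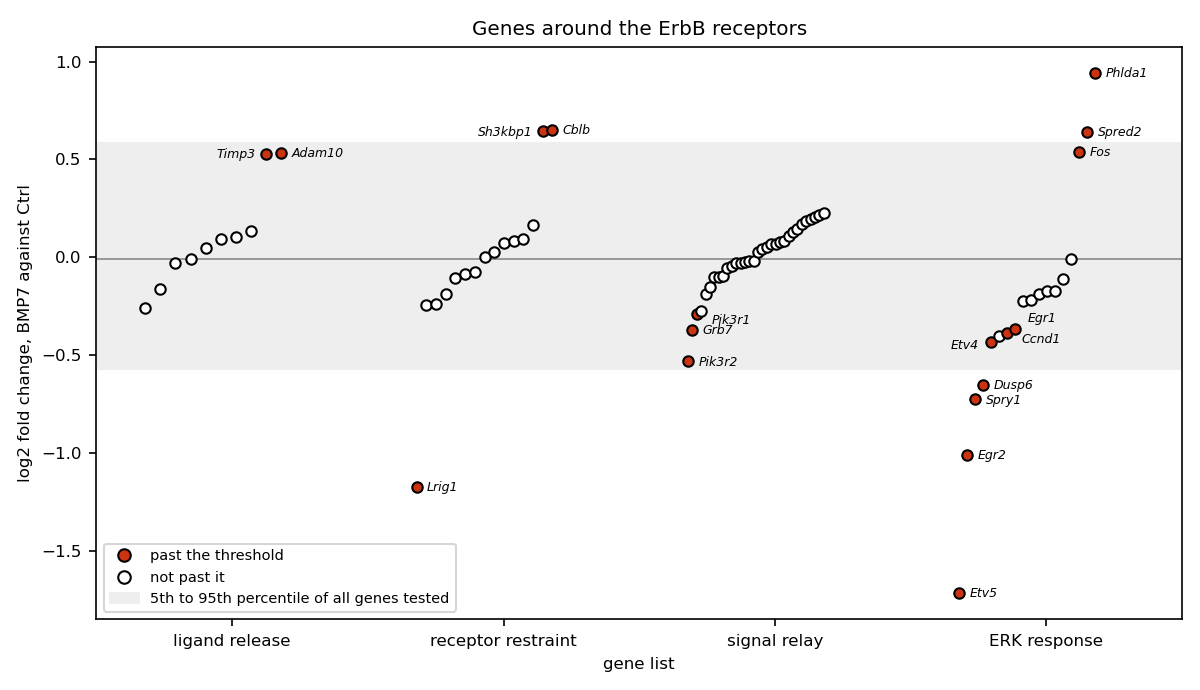
Log2 fold change, BMP7 against Ctrl (y axis), of each tested gene in the 4 lists, ordered within a list, with genes past the thresholds filled and named. The grey band holds the middle 90% of all genes tested. Lrig1 (-1.17) and Etv5 (-1.71) lie furthest below it and Phlda1 (0.94) furthest above.

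Markers of cell types moved with the groups and are given beside the falls of Erbb3, Ereg and Btc. Over all genes tested, 5.99% were called higher and 5.38% lower. Of 9 luminal and epithelial markers, 7 were tested and 3 were lower (Krt18 by -0.67, Epcam by -0.42 and Cdh1 by -0.27). The summed level of the 9 was 1767 to 1786 CPM in Ctrl and 1418 to 1446 CPM with BMP7. Cdh1 and Epcam led this sum, with means of 983 and 640 CPM in Ctrl. The luminal keratin Krt8 was not called (0.09, edgeR adjusted p = 0.479). Under DESeq2 and RLE scaling Cdh1 missed the fold threshold (-0.26 each). Of 7 basal markers, 4 were higher (Krt14, Krt17, Trp63 and Oxtr, by 0.43 to 1.58), with sums of 6547 to 6682 and 7508 to 8940 CPM. Krt14 and Krt5 led these sums, with means of 3489 and 2643 CPM in Ctrl, and Krt5 was not called (-0.03, edgeR adjusted p = 0.807). In 1 basal marker every BMP7 library lay below every Ctrl library (15.1% of all genes). Of 7 fibroblast markers, 3 were higher and 1 lower (sums 114.9 to 126 and 102 to 119 CPM), with Lum at 0 to 15 counts. All 5 adipocyte markers tested of 7 were higher and 2 of 6 macrophage markers tested of 8 were lower, with the sums per library given above and Pparg at 0 to 3 counts. In the fits with 1 library left out, Adipoq kept its call in 5 of 6, Plin1, Lyz2 and Cdh1 in 3, and Col3a1 and Ptprc in 1. For BMP7 library 1 alone the 5 adipocyte markers were at 0.25 to 0.80, against a median of 1.83 with all libraries. In that fit the macrophage markers Ptprc and Lyz2 were at -0.23 and -0.21, against -1.86 to -0.90 and -1.93 to -0.87 with 1 library left out. The fibroblast markers Dcn and Col3a1 were at 0.56 and 0.19, against 1.42 to 2.05 and 0.52 to 0.82. The part of these markers in the falls of Erbb3, Ereg and Btc was not tested, and in bulk libraries fewer cells of a type and less RNA per cell cannot be told apart.

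The genes whose pattern over the 6 libraries was most like that of Btc, the called member with the largest fall, were Ccser2, ENSMUSG00000103009, Armc9, Ahsa2 and Stard9, with Pearson correlations of log2 CPM of 0.995 to 0.997. Among 14100 genes of at least 1 CPM, 182 exceeded 0.95, and the libraries share their group difference, so the values describe likeness only. Ccser2 (-0.33), Armc9 (-0.45) and Stard9 (-0.90) were themselves called lower, and ENSMUSG00000103009 (-0.44, edgeR adjusted p = 0.123) and Ahsa2 (-0.18, edgeR adjusted p = 0.200) were not.

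Promoter windows of 300 bases, from 250 before to 50 after the start, were found in RefSeq (GRCm38.p6) for 6 of the 10 members (Areg, Btc, Egfr, Epgn, Erbb2 and Tgfa). Motifs were searched on both strands. The window of Btc is shown without its last 50 bases because Btc is the member of these 6 that was called. It runs 5′ to 3′ on the gene's strand (chr5:91402995-91403244, minus strand), with the 1 match of the E-box read by Snail and Zeb factors in capitals.
Btc promoter: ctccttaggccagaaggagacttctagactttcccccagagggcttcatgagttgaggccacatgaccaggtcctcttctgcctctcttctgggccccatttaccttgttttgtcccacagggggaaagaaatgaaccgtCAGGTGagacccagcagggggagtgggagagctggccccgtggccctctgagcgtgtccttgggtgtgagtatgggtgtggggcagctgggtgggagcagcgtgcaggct
This E-box, CACCTG on either strand, was found in 4 of 6 members (Areg, Btc, Epgn and Tgfa) and in 20.2% of 32851 promoters. The Smad box CAGAC was found in 3 of 6 (49.6% of all), the GC-rich Smad motif GGCGCC in 1, Tgfa (11.9%), the ETS motif CCGGAA in 1, Egfr (14.9%), and the AP-1 motif TGANTCA in 0 (7.81%). A match in a window describes its letters and not a bound site.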

How the data were processed

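RNA from HC11 cells with or without BMP7 (3 libraries each) was sequenced after poly(A) selection. The authors aligned read pairs with subjunc (Subread 2.0.3, to mm10 with GENCODE vM30 by the methods) and deposited unnormalized counts of fragments per gene name. The file header names featureCounts 2.0.1, an mm39 annotation and exon counting without strand, and fragments matching several places or genes were not counted. The authors also deposited exon length, which was used for TPM. The BMP7 columns (1, 3 and 4) do not match the numbers in the labels (1, 2 and 3) and were used by group only.

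Counts were analysed in R 4.3.3 with edgeR 4.0.16 (filterByExpr, 15733 genes, TMM, quasi-likelihood test, Benjamini-Hochberg adjustment, called at 0.05 and 1.2-fold). SE is the log2 fold change over the square root of F. CPM has no prior count, and correlations and permutation tests used a prior count of 2. The common biological coefficient of variation was 0.0696. Counts of replicates differed beyond sampling noise (chi-square per degree of freedom 5.34 to 12.9). The script was tested on simulated data. Copies were searched with BLAST 2.17.0 in GENCODE vM21 transcripts.

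Alternatives were DESeq2 1.42.0, RLE and upper-quartile scaling, no filter, at least 10 counts in every library, no fold threshold or 1.5, each library left out, and a replicate block. The fit of BMP7 library 1 alone was added after seeing the data. Members and gene lists were chosen with earlier results of these data known. Named were all members, other family genes, called genes of each pathway list (the 3 largest rises and falls where over 6 were called), BMP targets, and the 5 genes most like the most changed member.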

Additional observations from a re-analysis of the deposited data

How the results depend on the processing

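Erbb3, Ereg and Btc were called lower under DESeq2, both other scalings, both other filters and without a fold threshold, and no member was called higher under any alternative. At a fold threshold of 1.5 the members lower fell from 3 to 1, the pathway genes higher from 7 to 4 and those lower from 11 to 5, by construction. With 1 library left out the members lower numbered 1 to 3 (1, Erbb3, without Ctrl library 2), the pathway genes higher 7 to 7 and those lower 7 to 11 (7 without Ctrl library 2). For BMP7 library 1 alone 6 pathway genes were lower, with fewer samples. Hbegf changed sign under DESeq2 (-0.016) and for BMP7 library 1 alone (-2.11), as did Nrg1 in the latter (-0.021), and the cause was not tested. With 1 library left out, signs changed for Hbegf (-0.49 to 0.42), Areg (-0.38 to 0.014), Tgfa (-0.11 to 0.019) and Nrg1 (-0.018 to 0.30). Requiring 10 counts in every library removed Hbegf.

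The groups share only the column numbers 1 and 3. Libraries of the same number correlated at -0.020 and 0.373 in their deviations over 10022 genes, and Ctrl library 1 with BMP7 library 4 at 0.398. With 2 shared numbers and no source for a pairing, the numbers were not taken to pair the libraries. A replicate block by these numbers leaves Ctrl library 2 and BMP7 library 4 without a partner. Its BMP7 effect therefore comes from libraries 1 and 3 of each group alone. This fit gave 3 members lower and 0 higher and took the pathway genes lower from 11 to 8 (7 higher as before). It ended the calls of Etv4 (-0.23), Egr1 (-0.17) and Ccnd1 (-0.17) and turned Hbegf (-0.0071) and Tgfa (0.024). The calls over all genes moved from 942 higher and 846 lower to 1152 and 959. Over all genes the counts differed by over 1.5 times only at a fold of 1.5 (476 higher, 304 lower) and without Ctrl library 2 (563 lower). Depth limits what can be said of Hbegf, Epgn, Egf and Nrg4, with 39 or fewer counts per library, and of Erbb4, Nrg2 and Nrg3, with 6 or fewer.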
